A study of Mus musculus with 8 samples.

Results

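The 37 genes described here encode the enzymes that build sterols and fatty acids, the proteins that regulate them, and the enzymes that turn choline into phosphatidylcholine. They were chosen by gene name alone, with no measured value in the rule, from the 37074 gene names carried by the array. The sterol enzymes number 15, the enzymes that make, lengthen, desaturate or activate fatty acids 14, the regulators 4 and the phosphatidylcholine enzymes 4. A total of 36 could be tested, and each of these was well above background on all 8 arrays. Pcyt1b, the paralogue of Pcyt1a, has 1 probe, which was above background on 1 array, and it was not tested.

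The samples were whole lungs of 8 male chimeric mice, 22 weeks old, collected 72 hours after diphtheria toxin was injected. Marrow donors and recipients were each wild type (W) or LysM-DTR (L); in LysM-DTR mice the receptor for the toxin is under the lysozyme M promoter, which makes cells with an active promoter sensitive. Group names give the donor first, so that LL carried the receptor in marrow and recipient, WL in the recipient alone, LW in the marrow alone and WW in neither. Each of the 4 groups held 2 mice with 1 array each, every mouse had received the toxin, and no toxin-free array was analysed here. Cells in which the lysozyme M promoter works include macrophages, monocytes, neutrophils and also the alveolar type 2 cells of the lung epithelium, so a receptor in the recipient marks epithelium together with any host blood cells that survived the transfer of marrow.

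Sterol and fatty acid synthesis both start from acetyl-CoA and share one control system. SREBP-2 (Srebf2) mainly drives genes of the mevalonate and cholesterol pathway and SREBP-1 (Srebf1) genes of fatty acid synthesis. Both are escorted by Scap from the endoplasmic reticulum to the Golgi, where they are cut and released, and Insig1 holds the complex back when sterols are plentiful. In the lung this machinery is best known from alveolar type 2 cells, which secrete surfactant, a mixture of proteins with phosphatidylcholine and cholesterol.

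Values are log2 levels, the log2 of the processed signal minus the 75th percentile of its array, so that a level of 0 equals that percentile. Levels of different probes are not comparable with each other. The 75th percentile lay between 208.6 and 324.4 intensity units, between 66.3 and 72.3% of spots exceeded background, and none was saturated. All arrays lay on 1 slide, on which the recipient's genotype coincided with the column and the donor's with the place along it, and genotype therefore cannot be told apart from position. The WL mice differed from each other: across genes the correlation of their levels was 0.96, against 0.99 within each other pair, and the second WL mouse correlated more closely with LL (0.97 and 0.98) than with the first WL mouse. In whole lung, fewer cells of a type and less RNA per cell cannot be told apart. Of the lung's own markers, Sftpc, Scgb1a1, Ager, Pecam1, Cdh5, Nkx2-1 and Foxj1 were all measured on every array.

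The promoters of 4 of the 11 sterol genes whose level was highest of the 8 mice in the second WL mouse are shown. These 4 are not the genes with the largest rise in that mouse. The promoters of Fasn, which was low in LL, and Chka, which was high there, are shown with them. Each is the 250 bases before the annotated start from RefSeq on GRCm38.p6, and capitals mark matches to TCACNCCAC, a sterol regulatory element, or to CCAAT, the box bound by NF-Y, on either strand. Hmgcs1 lies at chr13:119690101-119690350, plus strand, Idi1 at chr13:8885356-8885605, plus strand, Hsd17b7 at chr1:169969206-169969455, minus strand, Cyp51 at chr5:4104698-4104947, minus strand, Fasn at chr11:120824548-120824797, minus strand and Chka at chr19:3851523-3851772, plus strand.
Hmgcs1: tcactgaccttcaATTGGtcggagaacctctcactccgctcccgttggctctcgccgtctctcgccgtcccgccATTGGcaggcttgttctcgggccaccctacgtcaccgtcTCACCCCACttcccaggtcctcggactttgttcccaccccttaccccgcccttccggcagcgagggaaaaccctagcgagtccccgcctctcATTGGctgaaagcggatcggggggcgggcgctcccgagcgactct
Idi1: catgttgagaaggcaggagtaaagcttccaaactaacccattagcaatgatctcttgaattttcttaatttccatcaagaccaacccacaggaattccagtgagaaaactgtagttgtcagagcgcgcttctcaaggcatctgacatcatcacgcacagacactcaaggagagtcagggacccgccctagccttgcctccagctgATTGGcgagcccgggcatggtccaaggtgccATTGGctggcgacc
Hsd17b7: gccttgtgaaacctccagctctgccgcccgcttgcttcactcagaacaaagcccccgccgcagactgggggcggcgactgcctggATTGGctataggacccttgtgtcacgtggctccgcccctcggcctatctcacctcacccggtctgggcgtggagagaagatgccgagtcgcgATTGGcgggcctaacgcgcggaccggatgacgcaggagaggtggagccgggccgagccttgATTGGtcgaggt
Cyp51: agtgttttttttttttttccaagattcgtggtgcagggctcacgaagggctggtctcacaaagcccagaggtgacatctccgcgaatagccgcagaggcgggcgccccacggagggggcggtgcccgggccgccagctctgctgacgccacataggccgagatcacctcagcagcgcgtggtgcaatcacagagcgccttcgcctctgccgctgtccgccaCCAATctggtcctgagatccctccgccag
Fasn: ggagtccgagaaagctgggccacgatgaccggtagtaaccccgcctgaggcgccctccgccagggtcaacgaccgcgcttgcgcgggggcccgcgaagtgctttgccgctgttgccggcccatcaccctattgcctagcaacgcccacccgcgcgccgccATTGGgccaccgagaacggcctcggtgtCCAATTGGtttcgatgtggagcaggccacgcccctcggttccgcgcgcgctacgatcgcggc
Chka: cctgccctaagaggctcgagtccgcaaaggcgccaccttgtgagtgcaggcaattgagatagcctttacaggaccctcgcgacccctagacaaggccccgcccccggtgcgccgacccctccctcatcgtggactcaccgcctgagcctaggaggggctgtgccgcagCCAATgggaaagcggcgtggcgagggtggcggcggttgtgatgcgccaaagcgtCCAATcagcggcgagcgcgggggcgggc

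RefSeq promoters were matched for 31 of the 37 genes, 43 promoters in all. Of the 15 promoters of sterol genes, 12 held CCAAT (80.0%), and every one of the 12 sterol genes matched had at least 1 such promoter. Among 14 promoters of fatty acid genes 6 held it (42.9%), and among all 32851 promoters of the same length 33.8%. The Hmgcs1 promoter held 3 matches to CCAAT, that of Hsd17b7 3, that of Idi1 2 and that of Cyp51 1. The Fasn promoter held 3, a pair of which overlap. The motif TCACNCCAC occurred in 1 of the 15 sterol promoters, that of Hmgcs1, in 1 of the 14 fatty acid promoters, in 2 of the 7 promoters of phosphatidylcholine genes, both of 1 gene, and in 1.05% of all promoters. The GC box GGGCGG was in 12 of the 15 sterol promoters, in 7 of the 14 fatty acid promoters and in 32.7% of all, and the E-box CACGTG in 3, 1 and 6.02%.

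No member passed limma's test at an adjusted p under 0.05 in any of the 7 comparisons when all 8 arrays shared one estimate of the spread. The share of all 25830 genes tested that passed was 3.13% for LL against WW, 0.00387% for WL against WW, 0.0542% for LW against WW, 2.8% for LL against LW and 1.72% for LL against WL. It was 1.27% for the recipient genotype averaged over marrow and 0.0619% for the interaction of marrow and recipient. At an unadjusted p under 0.05, 12 of 36 members passed in LL against WW (33.3%, against 24.8% of all genes), 14 in LL against LW (38.9%, against 25.7%) and 13 in LL against WL (36.1%, against 14.5%). For the recipient average 11 passed (30.6%, against 31.2% of all genes) and for the interaction 4 (11.1%, against 9.14%). None passed in WL against WW or in LW against WW, where 8.18% and 2.2% of all genes did. limma with a trended and robust variance also called 0 members in each comparison. The comparisons against WW share the WW mice and those of LL share the LL mice, so they are not independent of each other.

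The spread within the WL pair entered every test. When both WL arrays were left out, 16 of 36 members passed in LL against WW (44.4%, against 32.1% of all genes), 7 higher in LL (against 17.3%) and 9 lower (against 14.8%). In LL against LW 18 of 36 passed, against 32.8% of all genes, 8 higher (against 18.5%) and 10 lower (against 14.4%), and 15 members passed in both. LW against WW gave 0 members and 0.00774% of all genes. Fitted on the LL and WW arrays alone, limma called 9 members, 4 higher and 5 lower, and 24.2% of all genes. Adjusted p-values given for single genes are limma's, first from all 8 arrays and then, where said, without the WL pair. The differences themselves are the same in both, because each group keeps its own mean.

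**Figure D1:**
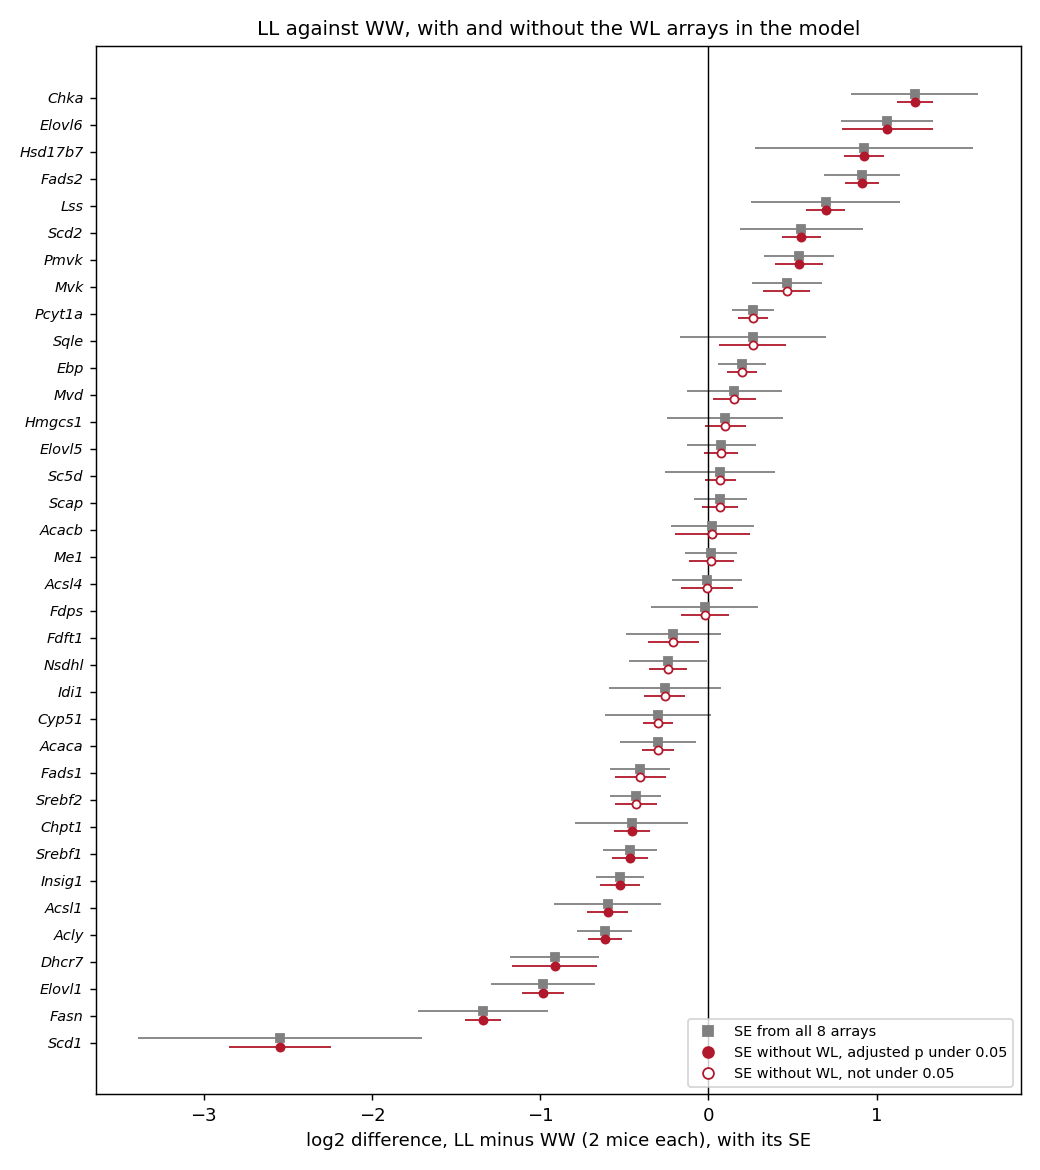
Log2 difference between LL and WW for each of the 36 members tested, with its standard error as a bar, ordered by size; squares take the error from all 8 arrays and circles from the 6 arrays without WL, filled where the adjusted p was under 0.05. The 16 filled circles run from Scd1 at -2.54 to Chka at 1.23, and no square passed.

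On the probes used, both LL mice lay below all 4 mice with wild-type recipients for 3 of the 4 regulators, and for 27.1% of all genes. Srebf1 stood at 2.86 and 3.02 in LL, 3.48 and 3.18 in WL, 3.46 and 3.53 in LW, and 3.47 and 3.35 in WW. Both LL mice were the lowest of the 8, with the second WL mouse next. The difference between LL and WW was -0.47 (SE 0.16, n = 2 mice a group, limma adjusted p = 0.156, and 0.0284 without the WL pair).

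Srebf2 stood at 2.51 and 2.67 in LL, 3.04 and 2.94 in WL, 3.08 and 3.06 in LW, and 3.15 and 2.90 in WW. On the probe used, the LL mice again lay below all others, and the second WL mouse lay within the range of the wild-type recipients. LL differed from WW by -0.43 (SE 0.15, adjusted p = 0.162, and 0.0543 without the WL pair). A further probe gave -0.20. On it the first LL mouse (-0.87) lay within the range of the wild-type recipients, and the second WL mouse (0.023) was the highest of the 8.

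Insig1, itself a target of the SREBPs, stood at -1.93 and -1.86 in LL, -1.33 and -1.29 in WL, -1.20 and -1.35 in LW, and -1.47 and -1.27 in WW. Both WL mice lay within the range of the wild-type recipients, and both LL mice lay below it. LL minus WW was -0.53 (SE 0.14, adjusted p = 0.108, and 0.0264 without the WL pair). Scap, the escort protein, lay between 2.51 and 2.95 on the 8 arrays, highest in the second WL mouse. Its difference between LL and WW was 0.070 (SE 0.16, adjusted p = 0.798) and turned to -0.051 under quantile normalisation.

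The sterol enzymes stood out in 1 mouse, the second of the WL pair, which was singled out after its values were seen. It had the highest level of all 8 for 11 of the 15 enzymes (73.3%, against 24.1% of all genes). It lay above all 4 mice with wild-type recipients for 13 of 15 (86.7%, against 37% of all genes), by a median of 1.20 on the log2 scale, against -0.067 over all genes. These counts take 1 probe a gene. On the further probes of Hmgcs1 and Sc5d this mouse lay within the range of those 4, and on that of Nsdhl below it. On those of Mvk, Pmvk, Fdft1, Lss, Cyp51, Hsd17b7 and Ebp it lay above. The first WL mouse lay above those 4 for 8 of 15 (against 20.3% of all genes), by a median of 0.14. The median difference between the WL mice, second minus first, was 0.97 over the sterol enzymes, against -0.017 in LL, -0.10 in LW and 0.065 in WW. These are descriptions of 1 mouse and carry no test of the genotype.

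Hmgcs1, which condenses acetyl groups to HMG-CoA, stood at 3.30 and 3.37 in LL, 3.33 and 4.43 in WL, 3.35 and 3.09 in LW, and 3.19 and 3.28 in WW. On the probe used, the second WL mouse was apart from the other 7, which lay between 3.09 and 3.37. LL minus WW was 0.098 (SE 0.35, adjusted p = 0.873) and became -0.069 under quantile normalisation and -0.17 with the mean of its probes. On a further probe the second WL mouse was not set off, at -2.81 beside -2.79 in the first WL mouse and -2.75 in the first LW mouse.

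Sqle, the monooxygenase that makes squalene epoxide, stood at 2.15 and 2.29 in LL, 2.32 and 3.67 in WL, 2.17 and 2.07 in LW, and 1.69 and 2.24 in WW. Again only the second WL mouse was set off, and LL overlapped WW. Its difference between LL and WW was 0.26 (SE 0.43, adjusted p = 0.721), and -0.013 without the first WW mouse.

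Hsd17b7 reduces the ketone left at the third carbon when the methyl groups of lanosterol are removed. It stood at 1.36 and 1.60 in LL, 0.62 and 2.84 in WL, 0.70 and 0.61 in LW, and 0.58 and 0.53 in WW. The LL pair and the second WL mouse lay above the other 5, and the WL mice differed 4.67-fold. LL minus WW was 0.92 (1.90-fold, SE 0.65, adjusted p = 0.393, and 0.00628 with an SE of 0.12 without the WL pair). Its probe lies at chr1:171882591-171882650 on mm9, and 2 further probes gave 0.61 and 1.12.

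Lss, lanosterol synthase, showed the same order of mice. It stood at 0.82 and 0.67 in LL, 0.064 and 1.55 in WL, 0.044 and -0.13 in LW, and -0.0065 and 0.10 in WW. The LL pair lay above WW without overlap, below the second WL mouse and above the first. LL differed from WW by 0.70 (SE 0.45, adjusted p = 0.356, and 0.0117 without the WL pair).

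Dhcr7, which makes cholesterol from 7-dehydrocholesterol, went the other way. It stood at -2.46 and -3.19 in LL, -1.76 and -2.07 in WL, -1.92 and -2.13 in LW, and -1.85 and -1.97 in WW. The LL mice were the lowest 2 of the 8, the first WL mouse was the highest, and the second lay within the range of the wild-type recipients. LL minus WW was -0.91 (1.89-fold lower, SE 0.26, adjusted p = 0.120, and 0.0485 without the WL pair).

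The 10 other sterol enzymes differed between LL and WW by -0.30 to 0.54, and 1 of them, the phosphomevalonate kinase Pmvk, passed without the WL pair (0.54, adjusted p = 0.0429). It stood at 4.36 and 4.11 in LL, 3.42 and 3.89 in WL, 3.28 and 3.22 in LW, and 3.57 and 3.83 in WW, and had the smallest adjusted p of any member in LL against LW (0.99, adjusted p = 0.0660). Idi1, Fdps and Cyp51, on the way to and from squalene, were about 2-fold apart within the WL pair (2.07, 1.95 and 2.01), and none passed in LL against WW in either fit. The 15 sterol enzymes together had a median difference of 0.098 between LL and WW, with 9 above 0 and 6 below, where all genes had a median of 0.025. The list's median was -0.012 under quantile normalisation.

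**Figure D2:**
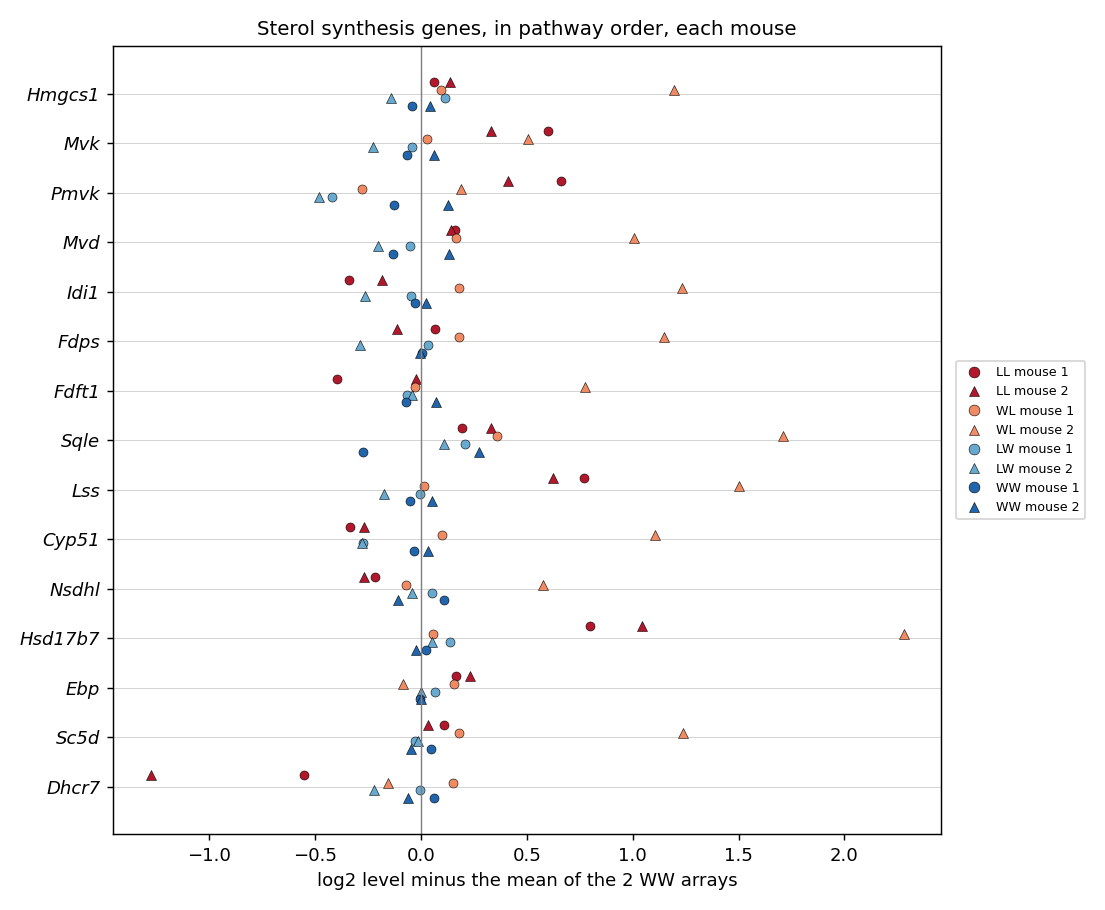
Log2 level of each of the 15 sterol enzymes in each mouse minus the mean of the 2 WW mice, with the pathway running from top to bottom; circles are the first and triangles the second mouse of a group. The second WL mouse (orange triangles) is rightmost for 11 of 15 enzymes, and Hsd17b7 and Lss also show the LL pair (red) to the right of WW.

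Genes of sterol supply and control that are not members were counted over a list of 13, of which 12 were tested. The second WL mouse was the highest of the 8 for 9 of the 12 (75%, against 24.1% of all genes). None of the 12 passed in LL against WW, and their median difference was -0.081. By smallest p, Tm7sf2, a sterol reductase, differed by -0.85 (SE 0.30, adjusted p = 0.163) and Insig2 by 0.23 (SE 0.16, adjusted p = 0.391).

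The fatty acid enzymes followed another pattern, in which the low values lay in LL and in the second WL mouse. That WL mouse lay below all 4 mice with wild-type recipients for 10 of 14 enzymes (71.4%, against 43.3% of all genes), by a median of -0.52. Both LL mice lay below those 4 for 7 of the 14, and 6 of these 7 (Acly, Acaca, Fasn, Elovl1, Scd1 and Acsl1) were also below them in the second WL mouse. Over all genes 27.1% lay below those 4 in both LL mice. Elovl6 and Scd2 lay above the wild-type recipients in both LL mice and below them in the second WL mouse. On the probe used, Fads2 lay above them in all of these 3 mice. The median difference between LL and WW was -0.16 over the 14 enzymes, with 6 above 0 and 8 below.

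Scd1, the stearoyl-CoA desaturase that makes oleate and palmitoleate, had the largest difference of any member. It stood at 0.86 and 1.60 in LL, 4.24 and 1.45 in WL, 3.40 and 3.68 in LW, and 4.02 and 3.54 in WW. The 3 low mice were the LL pair and the second WL mouse, and the first WL mouse was the highest of all. LL differed from WW by -2.54 (5.84-fold lower, SE 0.84, adjusted p = 0.149, and 0.00531 with an SE of 0.30 without the WL pair). Its probe lies at chr19:44469387-44469446 on mm9, and a second probe gave -1.37.

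Scd2, the neighbouring desaturase of the same family, stood at 5.39 and 5.61 in LL, 4.97 and 3.78 in WL, 4.94 and 4.88 in LW, and 4.98 and 4.91 in WW. The LL pair was above all others, opposite to Scd1, whereas the second WL mouse was the lowest for Scd2 and among the 3 lowest for Scd1. LL minus WW was 0.55 (SE 0.37, adjusted p = 0.369, and 0.0211 without the WL pair).

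Fasn, the synthase that makes palmitate, stood at 4.46 and 4.59 in LL, 6.14 and 4.88 in WL, 5.76 and 5.85 in LW, and 5.93 and 5.80 in WW. The same 3 mice were low as for Scd1, and the 5 others lay between 5.76 and 6.14. LL differed from WW by -1.34 (2.53-fold lower, SE 0.38, adjusted p = 0.118, and 0.00296 without the WL pair). The probe lies at chr11:120668460-120668519 on mm9.

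Upstream of Fasn, the citrate lyase Acly differed between LL and WW by -0.62 (SE 0.16, adjusted p = 0.102, and 0.0115 without the WL pair). Acaca, the acetyl-CoA carboxylase, stood at 2.49 and 2.61 in LL, 2.93 and 2.27 in WL, 2.87 and 2.94 in LW, and 2.84 and 2.87 in WW. The LL pair and the second WL mouse were below the rest, the latter lowest. Its difference was -0.30 (SE 0.23, adjusted p = 0.425, and 0.0673 without the WL pair), and the 5 further probes ranged from -0.91 to 0.22. Acacb differed by 0.022 and Me1 by 0.017, both with a sign that changed with the scaling.

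The elongases were split. Elovl6, which extends palmitate to stearate, stood at 3.06 and 2.94 in LL, 1.71 and 1.47 in WL, 1.82 and 1.90 in LW, and 1.54 and 2.34 in WW. Only the LL pair was high, and the second WL mouse was the lowest of all. The difference was 1.06 against WW (2.09-fold, SE 0.27, adjusted p = 0.0961, and 0.0388 without the WL pair), 1.14 against LW (adjusted p = 0.0826) and 1.41 against WL (adjusted p = 0.0742). It was the member nearest the threshold for the interaction of marrow and recipient genotype (1.49, SE 0.39, adjusted p = 0.291).

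Elovl1, which extends very long chains, stood at 6.0 and 5.85 in LL, 6.91 and 5.95 in WL, 6.94 and 6.70 in LW, and 6.93 and 6.88 in WW. The low mice were the 3 that were low for Fasn and Scd1. LL differed from WW by -0.98 (1.97-fold lower, SE 0.31, adjusted p = 0.137, and 0.00614 without the WL pair), and its other probe gave -0.99. Elovl5, an elongase of polyunsaturated chains, overlapped between LL and WW and was lowest in the second WL mouse, at 2.83 against 3.37 to 3.75 in the other 7.

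The desaturases of polyunsaturated fatty acids differed in direction. Fads2 had the smallest adjusted p of any member in LL against WW, at 0.0896 (0.91, 1.88-fold, SE 0.23, and 0.00446 without the WL pair). It stood at 0.77 and 0.76 in LL and 0.58 in the second WL mouse, and between -0.23 and -0.056 in the other 5. Its 4 further probes gave 0.10 to 0.59 for LL minus WW. On each of them the second LL mouse lay within the range of the wild-type recipients. On most of them the second WL mouse was not above that range. Fads1 differed by -0.40 (SE 0.18, adjusted p = 0.219, and 0.101 without the WL pair). Of the acyl-CoA synthetases, Acsl1 differed by -0.60 (SE 0.32, adjusted p = 0.279, and 0.0197 without the WL pair) and Acsl4 by -0.0099 (SE 0.21, adjusted p = 0.982), whose sign changed with the background correction.

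The phosphatidylcholine enzymes tested were 3. Chka, the choline kinase of the first step, stood at 1.49 and 1.50 in LL, 0.10 and 1.35 in WL, 0.30 and 0.16 in LW, and 0.34 and 0.19 in WW. On the probe used, the 3 mice that were low for Fasn were high for Chka, with no overlap with the other 5. Its 2 further probes gave 0.41 and 0.79 for LL minus WW. On both, the LL pair was again the highest, but the second WL mouse lay within the range of the other 5. LL differed from WW by 1.23 (2.34-fold, SE 0.38, adjusted p = 0.134, and 0.00322 without the WL pair), and its probe lies at chr19:3893508-3893567 on mm9. Pcyt1a, which makes CDP-choline and limits the pathway's rate, stood at 3.19 and 3.15 in LL, 2.84 and 2.84 in WL, 2.96 and 2.93 in LW, and 2.85 and 2.95 in WW. The LL pair was the highest, by a difference of 0.26 from WW (SE 0.13, adjusted p = 0.247, and 0.0827 without the WL pair).

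Chpt1, the cholinephosphotransferase of the last step, stood at 0.26 and 0.33 in LL, 0.79 and -0.29 in WL, 0.76 and 0.80 in LW, and 0.85 and 0.66 in WW. It was low in the same 3 mice in which the Chka probe used was high. LL minus WW was -0.46 (SE 0.33, adjusted p = 0.411, and 0.0300 without the WL pair).

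**Figure D3:**
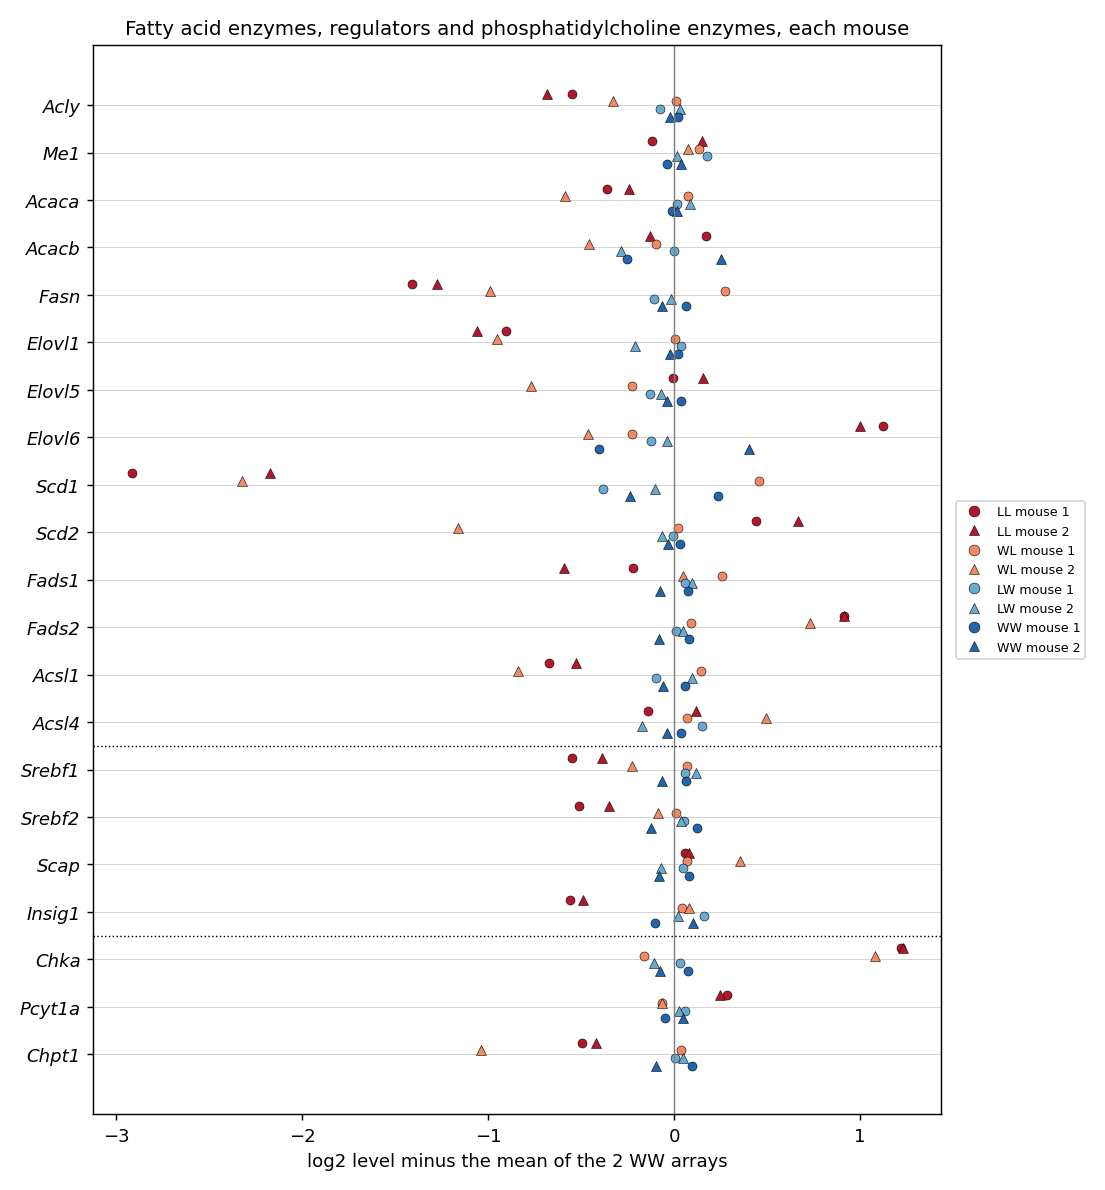
Log2 level of each fatty acid enzyme (top block), regulator (middle) and phosphatidylcholine enzyme (bottom) in each mouse minus the mean of the 2 WW mice; circles are the first and triangles the second mouse of a group. For Fasn, Elovl1, Scd1 and Acsl1 the LL pair (red) and the second WL mouse (orange triangle) lie to the left of the other 5, for Chka to the right, and for Elovl6 and Scd2 the LL pair and that WL mouse lie on opposite sides.

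The groups with a wild-type recipient were close to each other in these genes. LW and WW did not overlap for 6 of 36 members (16.7%, against 33.9% of all genes). LL and WW did not overlap for 27 of 36 (75%, against 69.5%), 12 higher (against 37%) and 15 lower (against 32.4%), and LL and LW for 27 (75%, against 71.9%). WL and WW did not overlap for 13 (36.1%, against 42.0%), and LL and WL for 22 (61.1%, against 37.8%). The recipient genotype averaged over marrow was nearest the threshold for Fads2 (0.65, SE 0.16, adjusted p = 0.0951).

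The result for WL against WW depended on which WL mouse was used. With the second WL mouse alone, 21 of 36 members passed against WW, where 37.7% of all genes did: 11 sterol enzymes, all higher, Fads2 and Chka higher, and Acaca, Acsl1, Elovl1, Elovl5, Fasn, Scd1, Scd2 and Chpt1 lower. With the first WL mouse alone, 0 members passed, and 0.00387% of all genes. In each of these fits the lone WL mouse was assumed to vary like the mice of the other groups, so the counts describe that mouse and not the genotype.

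The lists of markers of other cells followed differing patterns over the mice, and their part in these values was not tested. The alveolar type 2 list averaged -1.64 and -1.47 relative to WW in the LL mice, -0.11 in the first WL mouse and -1.73 in the second. All 10 of its markers were below 0 in LL against WW and 0 passed with all 8 arrays. The smallest p-values belonged to Napsa (-2.24, SE 0.47, adjusted p = 0.0635) and Lamp3 (-2.66, SE 0.69, adjusted p = 0.0992). Sftpc, the surfactant protein that defines the type, remained far above background, at 7.41 and 7.83 in LL and 7.55 in the second WL mouse against 9.57 to 9.81 in the wild-type recipients.

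The alveolar macrophage list averaged -2.86 and -2.26 in LL, 0.55 in the first WL mouse and -0.59 in the second. In LL against WW 7 of its 8 genes were below 0. With all 8 arrays 4 passed limma's test, all lower, where 3.13% of all genes passed in either direction. These were Siglecf, which was not well above background in either LL mouse (adjusted p = 0.0425), Itgax (-4.52, adjusted p = 0.0122), Ear2 (-3.34, adjusted p = 0.0409) and Mrc1 (-2.38, adjusted p = 0.0264). The second WL mouse lay below all 4 mice with wild-type recipients for 5 of the 8 and above them for 2, with a median of -0.56 relative to their mean.

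The adipocyte list averaged -0.65 and 0.41 in LL, 0.63 in the first WL mouse and -0.70 in the second, and 0 of 8 passed in LL against WW, with Fabp4 at 0.86 (adjusted p = 0.312) and Cfd at -1.12 (adjusted p = 0.360). In LL against WW 3 of the 8 were above 0 and 5 below. Adipoq stood at 0.63, above both WW mice (0.39 and 0.32), in the second LL mouse, the LL mouse with the higher list average. Genes of dividing cells averaged 1.79 and 1.77 in LL and 1.27 and 1.91 in WL, and all 10 rose in LL against WW. All 10 passed limma's test there with all 8 arrays, where 3.13% of all genes passed in either direction. In the second LW mouse the hepatocyte list averaged 4.19 above WW, and between -0.78 and 1.05 in every other mouse, over the 3 of its 6 genes that were measured. Over these 3 genes the second LW mouse exceeded the first by 1.14 to 5.75 on the log2 scale, with a median of 3.59. Ahsg stood at 2.27 in the second LW mouse and between -1.63 and -0.17 in the other 7, while Cyp2e1, at 2.28, lay within their range of 0.44 to 2.46.

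**Figure D4:**
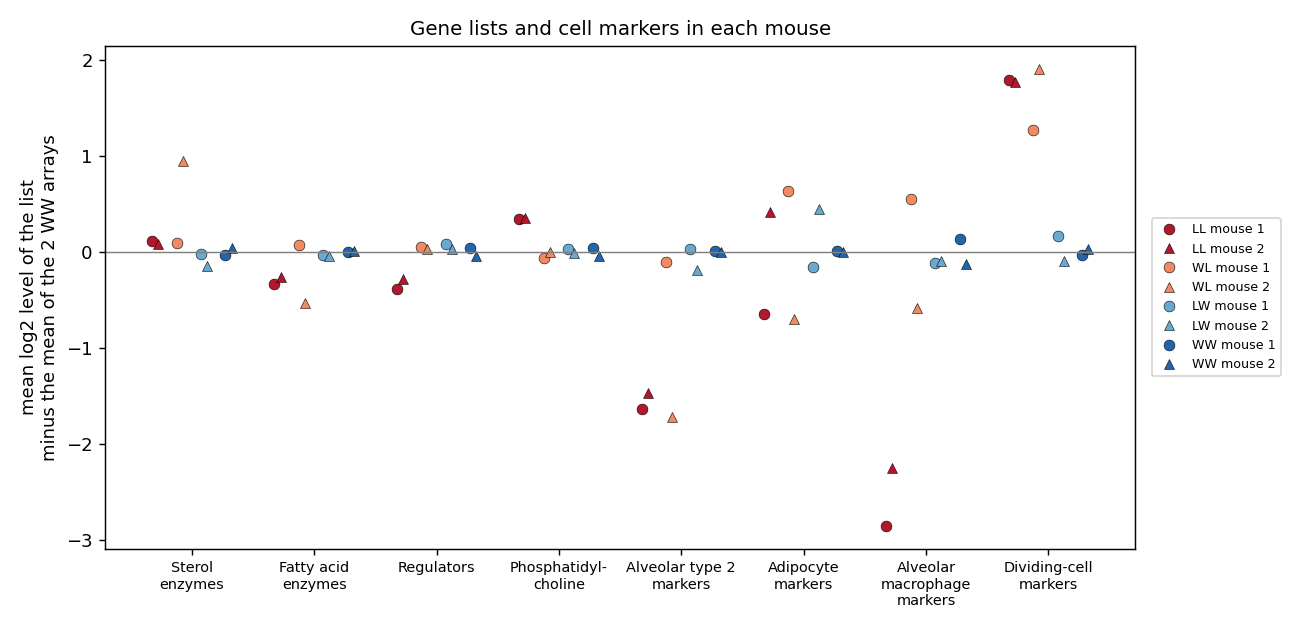
Mean log2 level of each gene list in each mouse minus the mean of the 2 WW mice; circles are the first and triangles the second mouse of a group. The second WL mouse stands at 0.95 for the sterol enzymes and at -0.54 for the fatty acid enzymes, and lies near the LL pair for the alveolar type 2 markers (-1.73 against -1.64 and -1.47) but not for the alveolar macrophage markers (-0.59 against -2.86 and -2.26).

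Of the 36 members, 24 had further probes that were kept, 37 in all. In LL against WW 28 of these had the sign of the probe used and 9 did not, over 8 genes. Those 8 were Acaca, Acacb, Acsl4, Cyp51, Elovl5, Fdft1, Hmgcs1 and Sc5d, none of which passed in LL against WW in either fit.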

How the data were processed

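The arrays were one-colour Agilent arrays of Cy3-labelled lung RNA, per the labels. The deposited scanner files give the intensity of each spot, which the authors read with Agilent Feature Extraction (version 11.5.1.1 in the submitters' processing notes). Per the file headers the processed signal had its background subtracted and was left unscaled between arrays. The deposited log2 values of the series table equalled the log2 of that signal minus 1 constant for each array, and served as an alternative. Probe positions come from the array's mm9 annotation, and no mm9 gene models were used here.

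Spots of a probe were averaged (59305 non-control spots, 56605 probes; 12 values left out as non-uniform), taken to log2, and the array's 75th percentile subtracted. A probe was kept (39602 were) if in any group both arrays showed it well above background, and the brightest probe stood for each gene (25830 genes). limma 3.58.1 in R 4.3.3 fitted 4 group means to 8 arrays (residual df 4, prior df 2.19), with Benjamini-Hochberg adjustment over all genes at 0.05; the script was tested on simulated data. Only 2 mice a group limit the precision.

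The members and lists were chosen with earlier results of these data known. Values on all arrays were given for a listed set of 13 members and for the 3 of each sublist with the largest difference between LL and WW. Of other lists, called genes (at most 4) or the 2 with the smallest p were named, but the genes of dividing cells were only counted. Pmvk, Elovl1, Elovl5, Fads2 and the further genes named with their values were chosen after their values were seen. Motifs were counted on both strands. Alternatives were another background correction (normexp, offset 50), scalings, filters, probe summaries, the series table, a replicate block, a trended and robust variance, other sets of arrays and leaving out each array; those on the second WL mouse were added after seeing the data.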

Additional observations from a re-analysis of the deposited data

How the results depend on the processing

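The count of 0 members in each comparison did not move under quantile normalisation, another percentile, either filter, the mean of probes, the series table, the variance model or without outlier spots; normexp gave 1 in LL against WL. The compared arrays alone gave 9 in LL against WW, where 24.2% of all genes passed. A fit with neither WL array gave 16 in LL against WW (against 32.1% of all genes) and 18 in LL against LW (against 32.8%). Leaving out 1 array gave 0 to 16 in LL against WW, 0 to 18 in LL against LW, 0 to 21 in WL against WW, 0 to 13 in LL against WL, 0 to 23 for the recipient average and 0 to 5 for the interaction; every count above 0 came from leaving out a WL array, which, for comparisons without WL, equals leaving out both. Replicate numbers did not pair the mice (correlations of deviations from -0.10 to 0.19), and the replicate block gave 0 members in each comparison and 447 genes in LL against WW. The sterol median for LL against WW was -0.012 with quantile normalisation, 0.052 with the percentile over detected probes, 0.024 with the mean of probes and 0.021 to 0.14 with 1 array left out. The fatty acid median was -0.13 with normexp, -0.30 with quantile normalisation, -0.20 with the detected probes, -0.16 with the mean of probes and -0.27 to -0.16 with 1 array left out. For the second WL mouse the sterol median was 0.99 with quantile normalisation and 1.07 with the mean of probes, and the fatty acid median -0.47 with normexp, -0.68 with quantile normalisation, -0.61 with the detected probes and -0.68 with the mean of probes. In LL against WW 25 of 36 members kept their sign throughout, and 11 did not. These were Fdps (0.034) and Acsl4 (0.030) with normexp; Hmgcs1 (-0.069), Ebp (-0.012), Me1 (-0.13), Acacb (-0.039), Elovl5 (-0.11) and Scap (-0.051) with quantile normalisation; Me1 (-0.029) and Acacb (-0.024) with the detected probes; Hmgcs1 (-0.17), Fdft1 (0.024), Sc5d (-0.35), Acacb (-0.062) and Acsl4 (0.078) with the mean of probes. With 1 array left out the range was -0.23 to 0.27 for Acacb, -0.14 to 0.12 for Acsl4, -0.11 to 0.065 for Fdps, -0.12 to 0.15 for Me1, -0.0047 to 0.16 for Elovl5, -0.013 to 0.54 for Sqle and -0.012 to 0.15 for Scap. The cause of these changes was not tested.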

Other observations

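Genes of sterol efflux and its nuclear receptors were mostly lower in LL, though none of the 10 passed limma's test with all 8 arrays. Their median difference from WW was -0.44, with 8 below 0 and 2 above. When the WL pair was left out 6 passed (against 32.1% of all genes), 1 higher (against 17.3%) and 5 lower (against 14.8%). Apoe, the apolipoprotein that carries lipid away from cells, differed by -0.64 (SE 0.18, adjusted p = 0.113) and Npc1, which moves cholesterol out of lysosomes, by -0.85 (SE 0.24, adjusted p = 0.115). Of 11 other phospholipid genes none passed with all 8 arrays. Pcyt2, of the phosphatidylethanolamine pathway, was nearest at -0.74 (SE 0.14, adjusted p = 0.0502). Lpcat1, which remodels phosphatidylcholine for surfactant, differed by -1.87 (SE 0.50, adjusted p = 0.102) and stood at -0.41 and -0.25 in LL and -0.23 in the second WL mouse, against 1.43 to 1.71 in the other 5.

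Among 14 genes of fatty acid oxidation 9 were above 0 in LL against WW and 5 below. Of these 14, 1 passed limma's test, higher in LL, where 3.13% of all genes passed in either direction. Acadl, the long-chain acyl-CoA dehydrogenase, stood at 3.33 and 3.41 in LL, 2.90 and 3.18 in WL, 1.79 and 1.84 in LW, and 1.97 and 1.77 in WW. All 4 mice with a LysM-DTR recipient were above all 4 with a wild-type recipient. The difference between LL and WW was 1.50 (SE 0.16, limma adjusted p = 0.0144), and between WL and WW 1.17 (adjusted p = 0.264). Of 16 other genes of lipid storage and chain synthesis none passed in LL against WW, and the smallest p-values belonged to Lpin1 (-0.92, adjusted p = 0.110) and Acsl3 (-0.52, adjusted p = 0.111).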
